A study of Homo sapiens with 3 samples.

Results

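The aminoacyl-tRNA synthetases are the enzymes that load each tRNA with its amino acid, and 36 of the 51136 genes in the count table belong to this family. They were taken by gene symbol: 20 encode the cytosolic enzymes (symbols without a 2, with EPRS and both subunits of the phenylalanine enzyme, FARSA and FARSB) and 16 the mitochondrial ones (symbols ending in 2). All 36 had at least 10 counts in every comparison made. The question was how the transcripts of both sets differed between untreated PANC-1 cells, a line from a human pancreatic carcinoma, and the same line after each of the drugs under study.

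RNA-seq was done on 3 libraries, 1 per condition. The control library came from PANC-1 cells that received no drug, the Rg3 library from cells given 200 µM Ginsenoside Rg3, a saponin of ginseng, for 24 h, and the TAM library from cells given 50 µM tamoxifen, an estrogen receptor modulator, for 24 h. There is therefore no replicate check of any difference, and every interval and test given here compares libraries and covers counting error only. PANC-1 is a cell line in monoculture, and its defining keratins and vimentin were present in the control library, with 15329 counts of KRT8, 11216 of KRT18 and 55276 of VIM, while KRT19 (665), KRT7 (248) and EPCAM (26) were lower.

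In the cytosol a synthetase joins an amino acid to its tRNA for the ribosomes that read nuclear messages, and a second, nuclear-encoded set is imported to do the same for the small translation system inside mitochondria. GARS and KARS are the exceptions to this division of labour, since each gene gives both forms. Several cytosolic enzymes sit in a large multi-synthetase complex held by the scaffold proteins AIMP1, AIMP2 and EEF1E1. Many cytosolic synthetase genes are known targets of ATF4, the transcription factor of the integrated stress response, which pairs with a C/EBP protein on elements of the type TGATGNAA.

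The promoters of 30 of the 36 genes were available in RefSeq (assembly GRCh38.p14, 250 bases before to 50 after each start), in which the cytosolic genes carry a trailing 1 in their symbol. LARS, VARS, YARS, AARS2 and VARS2 were among those with no entry. The 8 letters TGATGNAA were searched on both strands, and a match in any listed start of a gene counted. They were found in 7 of 16 cytosolic genes (43.8%) and 1 of 14 mitochondrial genes (7.14%), against 1270 of 35116 promoters in the whole table (3.62%). The units differ, since the sets are counted by gene, some with more than 1 start, and the whole table by single start. The stretches that hold a match are shown because they carry the difference in these shares, which was not tested. Each is 30 bases on the strand of its gene with the match in capitals, and a match is a description of letters, not of binding.
GARS, chr7:30594834-30594863, plus strand: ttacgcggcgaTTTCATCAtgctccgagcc
TARS, chr5:33440956-33440985, plus strand: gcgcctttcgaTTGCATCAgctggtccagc
NARS, chr18:57621804-57621833, minus strand: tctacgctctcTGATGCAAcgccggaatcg
IARS, chr9:92293692-92293721, minus strand: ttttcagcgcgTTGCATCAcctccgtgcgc
CARS, chr11:3057407-3057436, minus strand: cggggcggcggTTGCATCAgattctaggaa
MARS, chr12:57488053-57488082, plus strand: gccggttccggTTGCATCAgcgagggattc
AARS, chr16:70289675-70289704, minus strand: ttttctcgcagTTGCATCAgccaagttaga
YARS2, chr12:32756076-32756105, minus strand: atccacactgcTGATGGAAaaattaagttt
In 6 of these 7 cytosolic genes the match began within 33 bases of the start, from position -33 in GARS to 15 in NARS. AARS was the exception at position -187, and the single mitochondrial match, in YARS2, lay at -197.

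A second feature that runs through the results is base composition. The synthetase genes span a wide range of GC content in their longest transcript (GENCODE 29), from 41.2% to 62.6% with a median of 47.7% in the cytosolic set, and from 41.9% to 61.2% with a median of 51.2% in the mitochondrial set. The middle 90 coding bases of FARSA and EPRS are shown, with every G and C in capitals, because these transcripts lie near opposite ends of that range and differed in opposite directions between the libraries. FARSA is the α subunit of the phenylalanine enzyme, and EPRS the long glutamate and proline enzyme.
FARSA, coding bases 778 to 867 of a gene at chr19:12922479-12934037, minus strand: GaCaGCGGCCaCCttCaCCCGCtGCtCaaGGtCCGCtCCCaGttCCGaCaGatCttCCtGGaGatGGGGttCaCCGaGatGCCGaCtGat
EPRS, coding bases 2224 to 2313 of a gene at chr1:219968601-220046658, minus strand: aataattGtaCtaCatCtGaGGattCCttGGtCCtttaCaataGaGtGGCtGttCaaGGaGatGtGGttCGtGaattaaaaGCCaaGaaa
These stretches hold 61.1% and 37.8% G and C. At the third codon position the whole coding sequences differ more, with 79.7% G and C in FARSA, 37.7% in FARSB and 36.6% in EPRS.

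The libraries held 11300766 counts (control), 12861693 (Rg3) and 11321442 (TAM). Fold changes were scaled by TMM (trimmed mean of M-values), and division by library totals would shift every log2 fold change by 0.14 with Rg3 and by -0.21 with TAM. A gene was called higher or lower when its fold was over 1.5 or under 0.67 and an exact binomial test of its counts in 2 libraries, adjusted over all genes compared, passed 0.05. Over the transcriptome (genes of at least 50 counts) log2 fold changes followed GC content, with Spearman's rho of -0.81 for Rg3 over 11583 genes and 0.51 for TAM over 11022 genes, both as descriptions across genes, which are not independent replicates. Each fold change called against the control is therefore also given, for genes with a GC value, after the smooth trend of all genes on GC content and length was taken away, called the trend-removed value.

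With Rg3, the transcripts of 9 cytosolic synthetases were called higher, led by TARS, RARS and GARS at 1.93-fold, 1.90-fold and 1.82-fold, and 3 were called lower. In the mitochondrial set none was called higher and 4 were called lower. Over all genes compared, 20.5% were called higher and 15.8% lower, so 9 of 20 lies above the first share, and 4 of 16 and 3 of 20 lie near the second. The median log2 fold change was 0.13 in the cytosolic set, -0.24 in the mitochondrial set and 0.04 over all genes. Once the trend was removed, GARS alone stayed called higher and no synthetase lower, against 4.85% and 6.99% of all genes, and the medians were 0.17 and -0.18. If replicate cultures were assumed to vary with a biological coefficient of variation of 0.2, no synthetase passed edgeR's exact test against the control with either drug.

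Among the class II cytosolic enzymes, which share an antiparallel active-site fold, TARS, which charges threonine tRNA, went from 1377 counts without drug to 3340 with Rg3, a log2 fold change of 0.95 (95% interval 0.86 to 1.04) that became 0.50 after the trend was removed. GARS, the glycine enzyme, had 1675 and 3832 counts and a log2 fold change of 0.87 (0.78 to 0.95), which was 0.82 after removal. GARS stood apart in this: it has a GC content of 48.6%, and among all genes of 45 to 50% GC the median log2 fold change was 0.16, with quartiles of -0.11 and 0.42. Its exons overlap GARS-DT on the opposite strand, with which it shares 1.93% of its 50-base stretches. NARS, the asparagine enzyme, had 1041 and 2290 counts (0.81, interval 0.70 to 0.92, trend-removed 0.42). FARSB, the β subunit of the phenylalanine enzyme, had 578 and 1115 counts (0.62, interval 0.48 to 0.77), and with 0.03 after removal it lay on the trend of all genes.

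The class I enzymes carry a Rossmann fold. Of their 10 cytosolic members 4 were called higher and 2 lower (QARS and VARS), beside 20.5% and 15.8% of all genes. RARS, for arginine, had 673 counts in the control and 1600 in the Rg3 library, a log2 fold change of 0.92 (interval 0.79 to 1.05, trend-removed 0.36). EPRS, whose single chain charges both glutamate and proline tRNAs and is counted here by its glutamate part, had 1011 and 2275 counts (0.84, interval 0.74 to 0.95, trend-removed 0.36). LARS, the leucine enzyme that is also known as a leucine sensor for mTORC1, had 856 and 1865 counts (0.80, interval 0.68 to 0.92, trend-removed 0.19). IARS, for isoleucine, completed the group with 1778 and 3475 counts and 0.64 (0.56 to 0.72), or 0.19 with the trend removed. All 4 have a GC content under 45%. Of all genes of 40 to 45% GC and at least 50 counts, 45.3% were called higher with Rg3.

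The cytosolic transcripts called lower with Rg3 had GC contents of 55.2% to 62.6%. FARSA had 1400 counts in the control and 944 in the Rg3 library, a log2 fold change of -0.90 (-1.02 to -0.78) that was -0.34 after removal. VARS, the valine enzyme and at 62.6% the member with the highest GC content, had 3588 and 2697 counts (-0.74, interval -0.81 to -0.67, trend-removed -0.10). QARS, for glutamine, had 3945 and 3247 counts (-0.61, interval -0.68 to -0.54, trend-removed -0.24). The other 8 cytosolic members, AARS, CARS, HARS, KARS, MARS, SARS, WARS and YARS, were not called and lay between -0.42 (AARS) and 0.18 (CARS).

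In mitochondria the members called lower with Rg3 were SARS2, AARS2, VARS2 and FARS2. SARS2, the serine enzyme, had 1650 counts in the control and 1123 in the Rg3 library, a log2 fold change of -0.88 (-0.99 to -0.77, trend-removed -0.30). AARS2, for alanine, had 474 and 346 counts (-0.78, interval -0.98 to -0.58, trend-removed -0.25). VARS2, for valine, had 764 and 597 counts (-0.68, interval -0.84 to -0.53, trend-removed -0.16). FARS2, the single-chain phenylalanine enzyme of mitochondria, lay just inside the limit with 284 and 237 counts (-0.59, interval -0.84 to -0.33, trend-removed -0.38), and EARS2, for glutamate, just outside it at -0.56. The counts of 2 of these 4 genes are uncertain: 86.9% of the 50-base stretches of SARS2 also occur in other genes, mainly a readthrough transcript, and 30.1% of those of VARS2 occur in its neighbour GTF2H4. The 12 mitochondrial members not called ran from EARS2 to IARS2 at 0.44. The largest positive values here, those of IARS2, NARS2 (0.38) and RARS2 (0.32), belonged to transcripts of under 45% GC and were 0.00, -0.02 and -0.20 after removal.

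**Figure D1:**
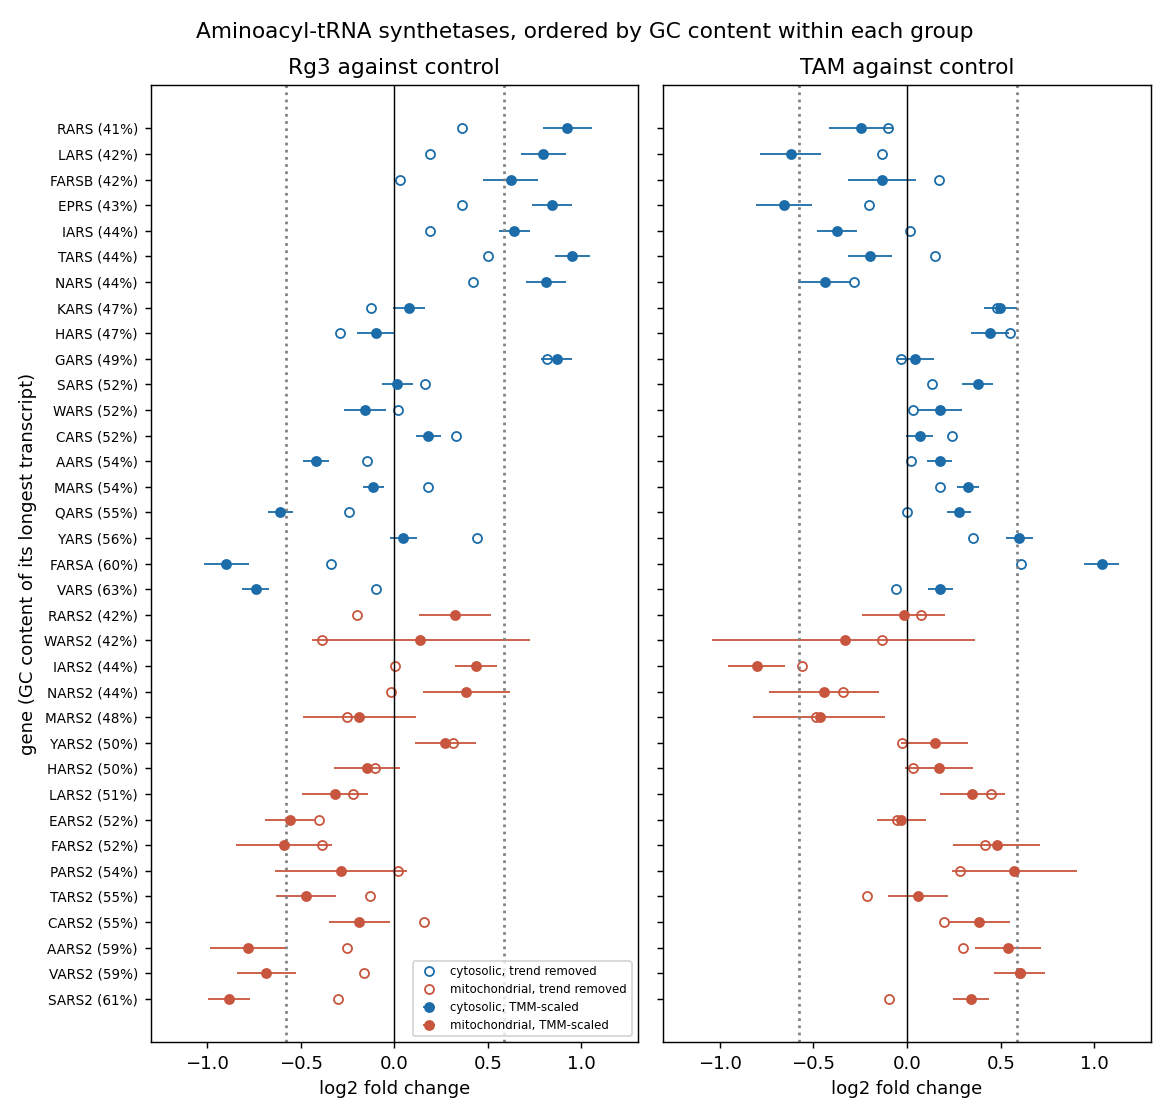
Log2 fold change (TMM-scaled) of 35 of the 36 synthetases with Rg3 and with TAM against the control library, with 95% counting intervals; open markers are the trend-removed values. With Rg3 the higher calls are all cytosolic and reach 0.95 (TARS), while with TAM FARSA stands out at 1.04.

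With TAM, few synthetases crossed the limits. FARSA and YARS in the cytosolic set and VARS2 in the mitochondrial set were called higher, and LARS and EPRS in the cytosolic set and IARS2 in the mitochondrial set were called lower. These are 2 of 20 and 1 of 16 in each direction, no more than the 14.0% higher and 18.4% lower over all genes. The medians of 0.12 and 0.16 lay above the -0.02 of all genes. Division by library totals moves all 3 alike, to -0.09, -0.05 and -0.23. After removal of the trend FARSA and VARS2 remained called higher and none lower, against 11.0% and 10.7% of all genes, with medians of 0.03 and 0.00. The control library is shared by this comparison and that with Rg3, so their values stand side by side and were not correlated.

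FARSA had 1400 counts in the control and 2493 in the TAM library, a 2.05-fold difference and a log2 fold change of 1.04 (0.94 to 1.13), which was 0.61 after removal. VARS2 had 764 and 1005 counts and 0.60 (0.46 to 0.74), with the same 0.60 after removal. The trend depends on the length used, and the longest transcript of VARS2 has 6054 bases, with 3279 in its coding sequence. AARS2, with the same GC content of 59.3% and 3854 bases, had a trend of 0.24 with TAM, against -0.00072 for VARS2. Whether VARS2 would stay called with another length was not tested. YARS, the tyrosine enzyme, had 2738 and 3595 counts and 0.60 (0.53 to 0.67), or 0.35 after removal. At 1.51-fold and 1.52-fold YARS and VARS2 lay just inside the limit, and the proline enzyme PARS2, with 135 and 174 counts, lay just outside it at 1.49-fold. GTF2H4 shares reads with VARS2, as above, and 9.31% of the 50-base stretches of YARS also occur in S100PBP on the opposite strand.

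On the lower side, IARS2, the mitochondrial isoleucine enzyme, had 1058 counts in the control and 526 in the TAM library, a log2 fold change of -0.80 (-0.96 to -0.65) and the lowest of the 36, or -0.56 after removal. EPRS had 1011 and 556 counts (-0.66, interval -0.81 to -0.51, trend-removed -0.21). LARS had 856 and 483 counts (-0.62, interval -0.78 to -0.46, trend-removed -0.13). Both cytosolic members had been called higher with Rg3. The other 16 cytosolic members lay between -0.44 (NARS) and 0.50 (KARS), with GARS at 0.04, and the other 14 mitochondrial members between -0.47 (MARS2) and 0.57 (PARS2).

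Across both drugs, no synthetase was called in the same direction against the control. LARS and EPRS were called higher with Rg3 but lower with TAM, FARSA and VARS2 showed the reverse order, and 18 of the 36 were called with neither. The same overlap was not counted over all genes, so it is not read as a trait of the synthetases. Over all genes the relation to GC content also had opposite signs with the drugs (rho of -0.81 and 0.51). In the direct comparison of the TAM with the Rg3 library, which does not use the control but sets 50 µM of one compound against 200 µM of another, 4 cytosolic members were called higher with TAM (FARSA, VARS, QARS and AARS) and 9 lower (among them EPRS, LARS, NARS, RARS, TARS, IARS, GARS and FARSB). Mitochondrial members were called higher in 6 cases (AARS2, VARS2, SARS2, FARS2, PARS2 and LARS2) and lower in 2 (IARS2 and NARS2). All genes gave 27.0% higher and 31.0% lower in this comparison. The extremes were FARSA at 1.93 (1.83 to 2.04) and EPRS at -1.50 (-1.64 to -1.37). With the trend removed FARSA (0.95), HARS (0.86), FARS2 (0.81), VARS2 (0.77), LARS2 (0.69) and KARS (0.62) were called higher, and GARS (-0.84) and NARS (-0.68) lower, against 17.6% and 14.4% of all genes. The trend used the longest transcript, which in HARS has 46.8% GC, against 53.3% in its coding sequence.

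The phenylalanine enzyme gave a contrast that needs no scaling, because its subunits were counted in the same libraries and combine in equal numbers in the protein. FARSA had 1400, 944 and 2493 counts in the control, Rg3 and TAM libraries, and FARSB had 578, 1115 and 457. Exons of FARSA overlap FARSA-AS1 on the opposite strand, so antisense reads may be among its counts. The ratio of FARSA to FARSB counts was thus 2.42 (95% interval 2.20 to 2.67) in the control library, 0.847 (0.776 to 0.924) with Rg3 and 5.46 (4.94 to 6.04) with TAM. None of these intervals overlapped, and FARSA had more counts than FARSB with no drug and with TAM but not with Rg3. Counted per kilobase of transcript the ratios were 3.97, 1.39 and 8.94, so that per length FARSA exceeded FARSB in every library. The transcripts differ in GC content, 60.3% for FARSA and 41.6% for FARSB, and the trend-removed values of the subunits were -0.34 and 0.03 with Rg3 and 0.61 and 0.17 with TAM.

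GC content ordered the synthetases much as it ordered the transcriptome. Of the 12 members under 45% GC, 8 were called higher with Rg3 and none lower, with a median log2 fold change of 0.67, and none was called higher with TAM and 3 lower, with a median of -0.41. The 7 members of 55% GC or more went the other way, with 0 higher and 6 lower with Rg3 (median -0.74) and 3 higher and 0 lower with TAM (median 0.54). In the 17 members between these limits 1 was called higher (GARS) and 1 lower (FARS2) with Rg3, and none in either direction with TAM. Shares over all genes of at least 50 counts also followed GC content. At 40 to 45% GC, 45.3% were called higher with Rg3 and 33.9% lower with TAM, with medians of 0.55 and -0.33. At 55 to 60% GC, 36.4% were called lower with Rg3 and 28.7% higher with TAM. At 60 to 65% GC these were 51.9% and 35.2%, with medians of -0.60 and 0.43. At 45 to 50% GC, 13.6% were called higher and 4.23% lower with Rg3, and 8.06% and 20.0% with TAM. At 50 to 55% GC these were 3.86% and 17.15%, and 17.6% and 11.8%. Over the members Spearman's rho between GC content and log2 fold change was -0.85 with Rg3 and 0.76 with TAM, given as descriptions over 36 genes that share their libraries, and taking the trend away left -0.33 and 0.42. The spread of the members narrowed with it, from an SD over genes of 0.57 to 0.29 with Rg3 and of 0.43 to 0.29 with TAM. With 1 library per condition, a drug response that depends on GC content and a difference between library preparations cannot be told apart.

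**Figure D2:**
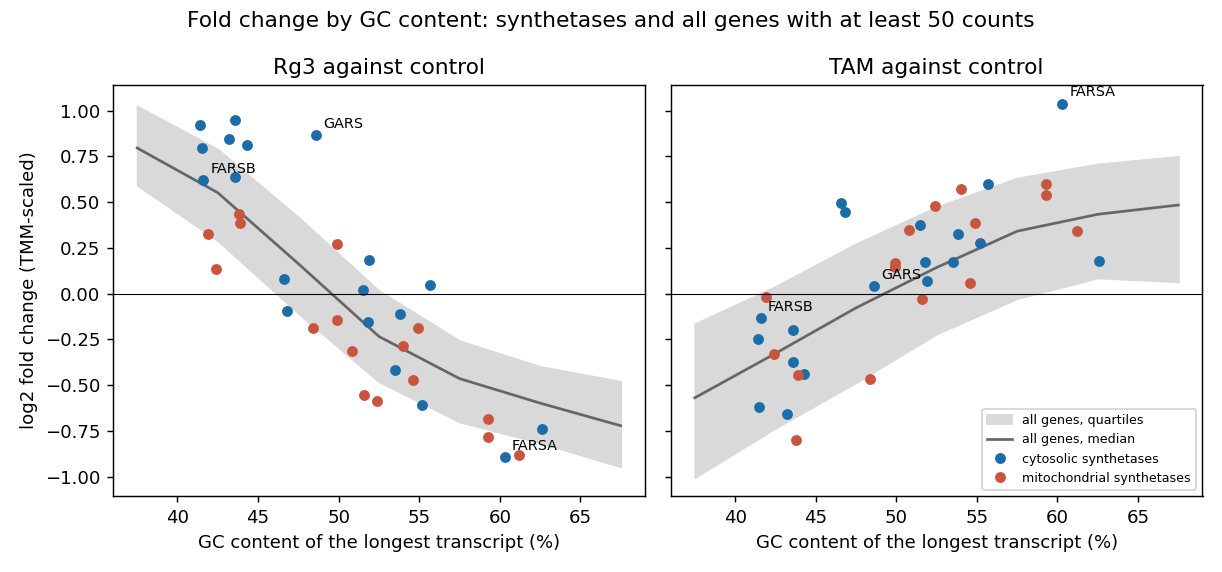
Log2 fold change against GC content of the longest transcript (%), for 35 cytosolic and mitochondrial synthetases (points) and for all genes with at least 50 counts (median line and quartile band by GC class). Points fall with GC content with Rg3 and rise with TAM along the line of all genes. GARS, FARSA and FARSB are named as examples, and other members also lie outside the band.

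Levels between genes were compared as CPM (TMM-scaled counts relative to library size) per kilobase of the longest annotated transcript. In the control library the cytosolic set ran from 14.9 (FARSB) to 122 (QARS) with a median of 42.2, and the mitochondrial set from 1.39 (WARS2) to 69.9 (SARS2) with a median of 12.9. The medians were 51.8 and 12.1 in the Rg3 library and 50.0 and 16.1 in the TAM library, so the cytosolic level was 3.28, 4.27 and 3.10 times the mitochondrial one in the control, Rg3 and TAM libraries, or 5.28, 7.22 and 5.16 times with the median transcript length of each gene. That median can be shorter than the coding sequence, as in MARS (575 against 2700 bases) and LARS (620 against 3528), but not in MARS2 (3019 against 1779). Ratios by the median length therefore depend on which short transcripts are annotated. As a share of all counts the cytosolic set took 0.350%, 0.415% and 0.351%, and the mitochondrial set 0.0804%, 0.0743% and 0.0780%.

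There are 13 amino acids for which a cytosolic and a mitochondrial gene share a symbol apart from the 2. The cytosolic gene had the higher level per kilobase in all 13 in the control and Rg3 libraries and in 12 in the TAM library, where LARS stood at 0.825 times LARS2, against 1.61 and 3.49 times in the control and Rg3 libraries. That exception rests on the length used. With the median transcript length the cytosolic gene was higher in 12, 13 and 12 of the 13 pairs in the control, Rg3 and TAM libraries. LARS then stood at 6.12, 13.2 and 3.13 times LARS2, and the exception was serine, with SARS at 0.758, 1.41 and 0.777 times SARS2. The median lengths of SARS and SARS2 are 1216 and 677 bases, below their coding sequences of 1608 and 1560. For threonine TARS stood at 1.28, 3.43 and 1.07 times TARS2 with the longest transcript and at 2.27, 6.09 and 1.90 times with the median length. The widest margins were those of tryptophan and methionine, with WARS at 24.0 times WARS2 and MARS at 22.4 times MARS2 in the control library (40.8 and 140.2 times with the median length). The value of 140.2 rests on a median length of 575 bases in MARS, below its coding sequence, against 3019 in MARS2. WARS2 was the least abundant member, with 45, 62 and 31 counts, and its log2 fold changes of 0.14 (-0.44 to 0.72) with Rg3 and -0.33 (-1.04 to 0.36) with TAM could not be separated from 0 at this depth. Within pairs, the cytosolic gene had the higher log2 fold change in 10 of 13 with Rg3 and in 7 with TAM, or in 12 and 9 of 13 after removal of the trend. Members of a pair differ in GC content and are not replicates of a condition, so no test was made of these counts.

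**Figure D3:**
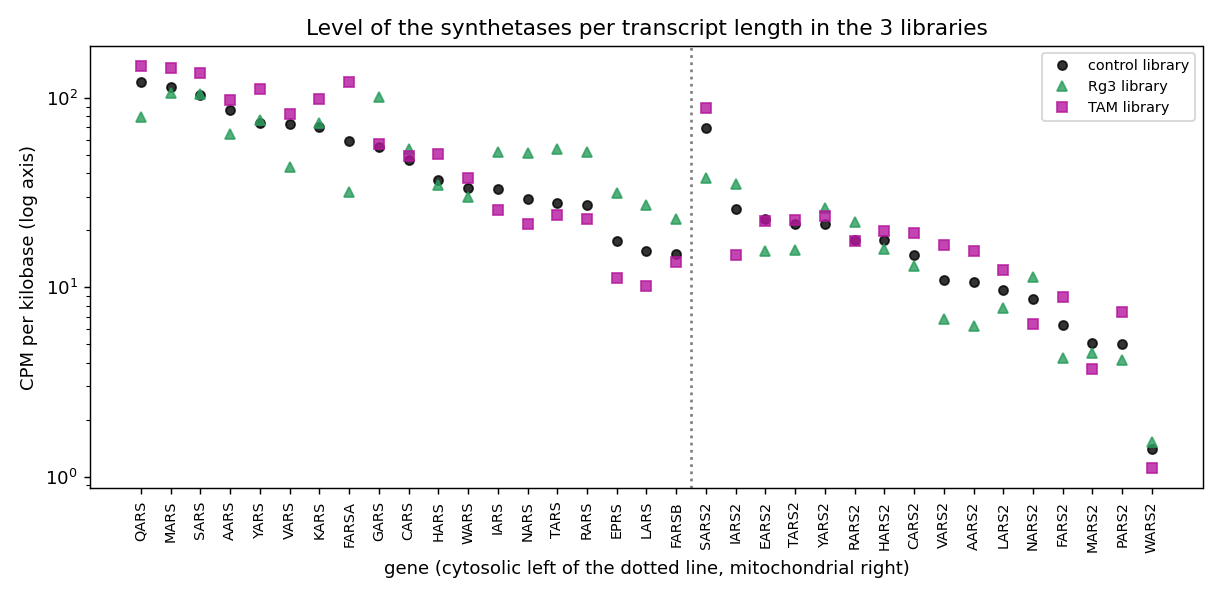
Level of 35 of the 36 synthetases in the 3 libraries, in CPM per kilobase on a log axis, with the cytosolic genes to the left and the mitochondrial genes to the right, each ordered by the control level. Control levels run from 14.9 to 122 in the cytosolic set and from 1.39 to 69.9 in the mitochondrial set.

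The enzymes of the multi-synthetase complex (among them EPRS, IARS, KARS, LARS, MARS, QARS and RARS) include 5 of the 9 higher calls with Rg3, with QARS called lower. Their median log2 fold change was 0.67, or 0.18 and no call after removal. Over all genes 20.5% were called higher and 15.8% lower. These 8 enzymes had a median GC content of 43.4%. Of all genes of 40 to 45% GC and at least 50 counts, 45.3% were called higher with Rg3. With TAM 2 of these 8 were called lower (EPRS and LARS), beside 18.4% of all genes and 33.9% of those of 40 to 45% GC. The median of the 8 was then -0.31, or -0.05 after removal. The scaffolds followed a similar division. AIMP1 had 200, 479 and 160 counts in the control, Rg3 and TAM libraries and EEF1E1 had 154, 390 and 130, and both were called higher with Rg3 (0.93 and 1.01). AIMP2 had 2237, 1731 and 2130 counts and was called lower with Rg3 (-0.70). No scaffold was called with TAM, and none with Rg3 after removal, where AIMP1, EEF1E1 and AIMP2 stood at 0.08, 0.24 and -0.57.

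The ATF4 pathway is background for the cytosolic set, and of its 22 genes compared 10 were called higher and none lower with Rg3 (median 0.34), and 8 and none with TAM (median 0.52), beside 20.5% and 14.0% of all genes called higher. After removal 8 and 7 were called higher and none lower, with medians of 0.36 and 0.46, beside 4.85% and 11.0% of all genes. ATF4 itself had 4200, 5755 and 5299 counts in the control, Rg3 and TAM libraries and was not called (0.13 and 0.54). After removal ATF4 stood at 0.56 with Rg3 and 0.17 with TAM, again not called, so the order of the drugs depended on the setting. Its targets ASNS, the asparagine synthetase that is no tRNA synthetase, with 607, 1906 and 749 counts (1.32 and 0.51), DDIT3, the transcription factor CHOP, with 228, 680 and 382 (1.25 and 0.95), and TRIB3, with 437, 852 and 742 (0.64 and 0.97), were called higher with Rg3, and the latter pair also with TAM. After removal ASNS stood at 1.15 and 0.47, DDIT3 at 1.26 and 0.81 and TRIB3 at 1.21 and 0.57, and TRIB3 was no longer called with TAM. CHAC1, a glutathione-degrading enzyme, had 118, 242 and 453 counts and was called higher with both (0.71 and 2.15, or 1.32 and 1.68 after removal). The 13 cytosolic synthetases described as ATF4 targets gave 6 higher calls and 1 lower call with Rg3 (median 0.18), and with TAM 1 higher call and 2 lower calls (median 0.07). The other 7 gave 3 and 2 such calls with Rg3 (median 0.08) and 1 and 0 with TAM (median 0.28). After removal these medians were 0.19 and 0.02 in the 13, and -0.13 and 0.17 in the other 7.

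Grouped by the promoter letters shown above, the 7 cytosolic genes with TGATGNAA had a median log2 fold change of 0.64 with Rg3, or 0.33 after removal. Of these, 4 were called higher (GARS, IARS, NARS and TARS) and none lower, beside 20.5% and 15.8% of all genes. The 9 cytosolic genes whose window held no match had a median of 0.02, or 0.02 after removal. Of these, 3 were called higher (EPRS, FARSB and RARS) and 2 lower (FARSA and QARS). After removal GARS alone was called among the 7 and none among the 9, beside 4.85% higher and 6.99% lower of all genes. With TAM the medians were 0.04 and 0.28, or 0.02 and 0.13 after removal. No gene was called among the 7, and among the 9 FARSA was called higher and EPRS lower, beside 14.0% and 18.4% of all genes. AARS, CARS and MARS carry the match and were not called with either drug. MARS overlaps DDIT3 on the opposite strand and shares 6.77% of its 50-base stretches with it, so reads of these genes may not be fully told apart. This grouping was made with the fold changes known and received no test.

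Genes that act around the synthetases were read against the same shares of all genes. Among 13 genes of tRNA export, editing and repair 3 were called higher and 1 lower with Rg3, led by XPOT, the nuclear exporter of tRNA, with 730 counts without drug and 1856 with Rg3 (1.02, or 0.39 after removal), and TRNT1, which adds the CCA end (1.02, or 0.23). AARSD1, an editing protein related to AARS, was the gene called lower with Rg3 (-0.77, or -0.48 after removal) and the highest with TAM (0.81, or 0.51). With TAM 2 of the 13 were called higher and none lower. These counts lie near the shares of all genes, and none of the 13 was called with either drug after removal. Elongation factors bring charged tRNAs to the ribosome and move it on. Of 6 genes listed as cytosolic elongation factors, 2 were called higher with Rg3, EEF1A1 (0.67) and EEF1E1 (1.01), beside 20.5% of all genes. EEF1E1 is the scaffold protein of the multi-synthetase complex already counted above. With TAM 1 was called higher, EEF1D (0.61), beside 14.0% of all genes. After removal 0 were called higher with Rg3, and with TAM the 1 call was EEF1A1 (0.73) in place of EEF1D (0.33).

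In the mitochondrial translation system, the 77 ribosomal protein genes compared gave 28 higher and 1 lower with TAM, with a median log2 fold change of 0.44, beside 1 and 1 of 16 and a median of 0.16 for the mitochondrial synthetases. Over all genes 14.0% were called higher and 18.4% lower with TAM, and 20.5% and 15.8% with Rg3. After removal these shares were 11.0% and 10.7% with TAM, and 4.85% and 6.99% with Rg3. They stand beside every list in this paragraph. After removal the 77 genes gave 18 higher and none lower with TAM and a median of 0.34, beside 1 and 0 and 0.00 for the synthetases. The extremes among the 77 called with TAM were MRPS6 at 1.01 and MRPS10 at -0.61, or 1.42 and -0.48 after removal. TUFM, the mitochondrial elongation factor that carries charged tRNA, had 8288, 7479 and 11131 counts in the control, Rg3 and TAM libraries and was called higher with TAM (0.63, or 0.24 after removal). With Rg3 the same 77 genes gave 13 higher and 9 lower with a median of -0.11, and the 10 mitochondrial translation factors gave 4 higher and none lower. After removal these were 4 higher and 6 lower with a median of -0.06, and no factor called with a median of -0.01. Of the 4 genes that complete glutaminyl- and formylmethionyl-tRNA in mitochondria, which lack a glutaminyl-tRNA synthetase, 1 was called higher with each drug: GATC with Rg3 (0.62) and GATB with TAM (0.78). After removal GATC was no longer called with Rg3 (0.26) and GATB was called lower (-0.80), while with TAM both were called higher (0.80 and 1.26). Of 10 genes of mitochondrial tRNA modification and processing, 2 were called higher with Rg3 and none after removal, and TRMT10C, a subunit of mitochondrial RNase P, was called lower with TAM (-1.06, or -0.90).

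The mitochondrial tRNA genes, which encode the substrates of the 16 enzymes, were counted at low and uneven depth. Whether their reads came from mature tRNA or from longer transcripts was not tested. Of 14 compared with Rg3, 7 were called lower and none higher, beside 15.8% of all genes called lower. Of 13 compared with TAM, 6 were called lower and none higher, beside 18.4% of all genes called lower. The medians were -0.86 and -1.08. TRND, the gene of the aspartate tRNA, had 128, 36 and 15 counts and was called lower with both (-2.16 and -2.89). No GC content was assigned to these genes, so no trend was removed. WARS is known as an interferon-induced synthetase, and it was not called with Rg3 (-0.15) or TAM (0.17). IRF1, the interferon regulator, had 198, 245 and 224 counts and was not called either, while 3 of 9 interferon-induced genes compared were called higher with Rg3 and 2 of 10 with TAM, with none lower, beside 20.5% and 14.0% of all genes. After removal these were 0 of 9 and 1 of 10.

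**Figure D4:**
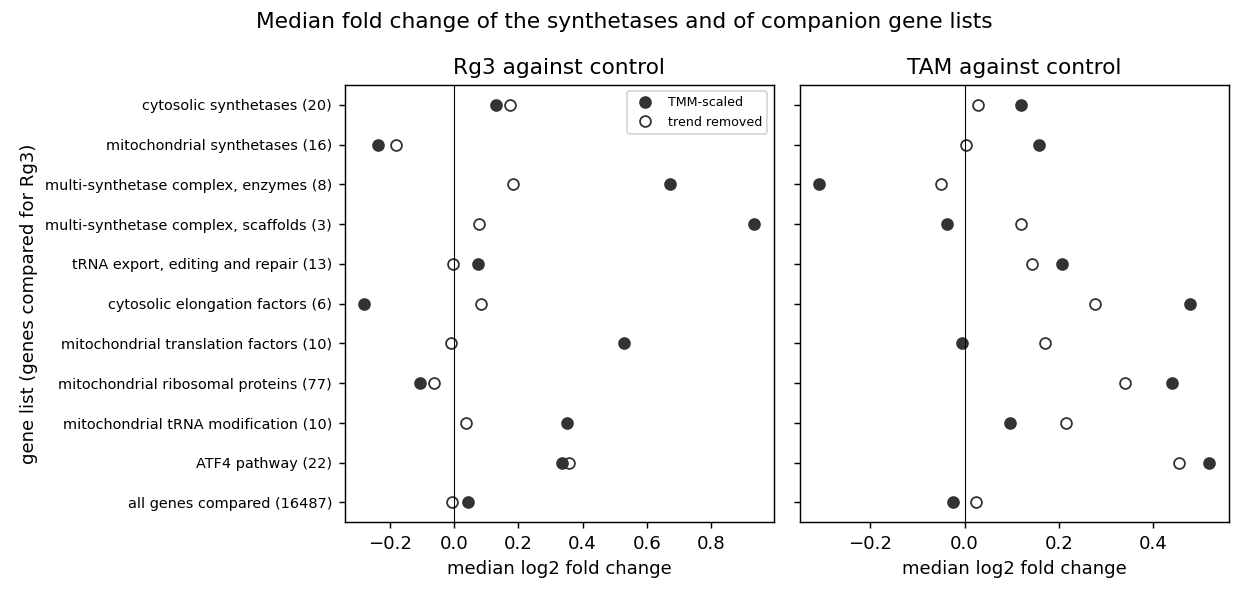
Median log2 fold change of the synthetase sets and of neighbouring gene lists with Rg3 and with TAM against the control library, as scaled by TMM (filled) and as trend-removed values (open). Removal takes the multi-synthetase complex from 0.67 to 0.18 with Rg3, while the ATF4 pathway stays at 0.34 and 0.36.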

How the data were processed

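Total RNA of PANC-1 cells was sequenced by the authors on an Ion Proton, reads were checked with FAST-QC, aligned with TopHat and assembled with MAQ after mapping, and the build is GRCh38 per the submitters' processing notes. The deposited values are raw counts per gene. The annotation, counting tool and use of strand are not given in the sources used here: exons of 17 members overlap a gene on the opposite strand and of 6 a gene on the same strand. The study's limits on fold and false discovery rate were kept, but its Limma test needs replicates. Counts were scaled by TMM (edgeR 4.0.16, R 4.3.3), genes were compared if either library held 10 counts, values below 3 became 3 in fold changes, and 95% intervals are exact (Clopper-Pearson, SciPy 1.17.1, Python 3.11.15). The trend was a loess fit (span 0.3) over genes with a GC value, 86.6% of those compared with Rg3 and 87.2% with TAM. GC content, lengths and shared 50-base stretches come from GENCODE 29. Scripts were tested on simulated data. Members are named, except 1 that is counted but not reported singly here, with full counts for those called against control, and companion genes by a fixed list or as the highest or lowest called gene of a list. Members, lists and the motif were chosen with earlier results of these data known. Alternatives were library totals, DESeq2 1.42.0 size factors, other count minimums, the fold alone, an assumed biological variation, the median transcript length, members without shared stretches, and trend removal.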

Additional observations from a re-analysis of the deposited data

How the results depend on the processing

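No paired analysis was possible because no condition has more than 1 library, and for the same reason no library could be left out in turn. Filters of 1 or 50 counts and the fold alone kept every count of synthetases called within 1.5 times and every direction. Among the neighbouring lists, a filter of 50 counts left 4 mitochondrial tRNA genes lower with Rg3 and 3 with TAM and 1 interferon-induced gene higher with TAM, and the fold alone called 1 mitochondrial tRNA gene higher with Rg3. Replicates were then assumed to vary by 0.2 (biological coefficient of variation, exact test of edgeR). With this, 0 synthetases were called against the control in either set and direction. For TAM against Rg3, 1 cytosolic gene stayed higher and 1 mitochondrial gene lower. The counts of cytosolic genes lower and of mitochondrial genes higher in that comparison stayed within 1.5 times those given above. At 0.4, 0 were called in all 3 comparisons. What replicates would have shown was thus not measured. Dividing by library totals gave, against the control with TAM, 1 cytosolic gene higher and 5 lower, 0 mitochondrial higher and 3 lower, and medians of -0.0886 and -0.0506, and with Rg3 2 mitochondrial genes lower and a cytosolic median of 0.27; for TAM against Rg3 it gave 1 cytosolic higher, 5 mitochondrial lower and medians of -0.24 and 0.18. This scaling moves all genes alike, by -0.21 with TAM and 0.14 with Rg3, so values near 0 change sign: AARS (-0.0352), CARS (-0.14), GARS (-0.17), HARS2 (-0.0399), TARS2 (-0.15), VARS (-0.0302), WARS (-0.0346) and YARS2 (-0.0613) with TAM, and HARS (0.0429) and MARS (0.0283) with Rg3, none of them called. DESeq2 size factors gave 2 mitochondrial genes higher with TAM and turned EARS2 (0.00126) and RARS2 (0.0159) there. Removing the trend on GC content and length left 1 cytosolic gene higher and 0 lower and 0 mitochondrial lower with Rg3, 1 cytosolic higher, 0 lower and 0 mitochondrial lower with TAM, and for TAM against Rg3 2 cytosolic lower, 3 mitochondrial higher, 0 lower and medians of -0.0489 and 0.24. It turned CARS2 (0.16), KARS (-0.13), MARS (0.18), NARS2 (-0.0161), PARS2 (0.0198), RARS2 (-0.20), WARS (0.0208) and WARS2 (-0.38) with Rg3, and FARSB (0.17), GARS (-0.0330), IARS (0.0185), RARS2 (0.0731), SARS2 (-0.0974), TARS (0.15), TARS2 (-0.21), VARS (-0.0586) and YARS2 (-0.0272) with TAM. Members without a shared 50-base stretch, which are fewer, gave 5 cytosolic higher and 0 mitochondrial lower with Rg3, 1 cytosolic higher, 1 lower and 0 mitochondrial higher with TAM, and for TAM against Rg3 5 cytosolic lower, a cytosolic median of 0.36, 2 mitochondrial higher and 1 lower. With the median transcript length in place of the longest, the cytosolic level was 5.28, 7.22 and 5.16 times the mitochondrial one in the control, Rg3 and TAM libraries. In some members, such as MARS and LARS, that median is shorter than the coding sequence.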
